A study of Mus musculus with 28 samples.

Results

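Ptprn, Twsg1, Ctnnal1, Nrtn, Pcsk1n and Scand1 were followed in purified rod photoreceptors of rd1 and wild-type mice from postnatal day (P) 2 to P10. These 6 genes, of 45594 in the gene table, were chosen by the course of their CPM and counts in rd1 against wild type on these same libraries, so the difference between genotypes is the property that chose them and is given here as a description, without a test. All 6 passed the filter on low counts, which left 18608 genes. The set had been called secretory and trophic: Ptprn, Nrtn, Pcsk1n and Twsg1 encode proteins of the secretory pathway or secreted proteins, whereas Scand1 and Ctnnal1 do not. The course itself also separated into 2 patterns. Ptprn, Twsg1 and Ctnnal1 were high in rd1 at P10. They were near wild type at P2 to P6, except that Ctnnal1 was lower in rd1 at P4, at 0.68 times its wild-type mean. At P8 Ptprn was already high in rd1, and Ctnnal1 was at 1.44 times its wild-type mean. Nrtn, Pcsk1n and Scand1 were high in rd1 from P2 onwards, except at P8, and were in the rd1 range in 1 wild-type library at P6.

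The rd1 mice were homozygous for the rd1 allele of Pde6b, which encodes the beta subunit of the rod phosphodiesterase, and carried the TgNrlp-GFP transgene. The wild-type (WT) mice carried the same transgene, TgNrlp-EGFP in the series' design text, without the rd1 allele. Green fluorescent protein in both genotypes was therefore driven by the promoter of Nrl, a rod transcription factor. Retinas were dissociated with papain, GFP-positive cells were collected by flow cytometry, and polyadenylated RNA was read as pairs of 125 bases from strand-marked libraries. There were 2 rd1 libraries at P2, 2 at P4, 3 at P6, 4 at P8 and 2 at P10, and 2, 3, 4, 2 and 4 WT libraries at the same ages. The labels do not say whether libraries came from separate animals or how many animals were pooled, so spreads and p-values describe these libraries and may be technical.

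In photoreceptors, loss of rod phosphodiesterase activity leaves cyclic GMP and calcium high, and rd1 rods die during the first weeks after birth. Neurons and endocrine cells store peptides in dense-core granules, where prohormones are cleaved by convertases before release. Ptprn encodes IA-2, a catalytically inactive phosphatase-like protein of the granule membrane, and Pcsk1n encodes proSAAS, an inhibitor of the prohormone convertase encoded by Pcsk1. Nrtn encodes neurturin, a ligand of the GDNF family that signals through the receptor GFRA2 and the kinase RET and is known for its support of neurons. Twsg1 encodes a secreted protein that binds bone morphogenetic proteins (BMPs) together with chordin. Ctnnal1 encodes alpha-catulin, a relative of alpha-catenin, and Scand1 encodes a protein that consists mainly of a SCAN domain, through which zinc finger transcription factors pair.

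Levels are the authors' CPM, which scales a gene's estimated counts to a common library total. Libraries held 11.1 to 21.4 M estimated counts. Of the markers of the labelled cell type, Nrl was at 1575 to 3049 CPM and Nr2e3 at 1967 to 3519 CPM over the libraries. The cells were sorted on the Nrl promoter, so the level of Nrl is not a separate check of their purity. Markers of other cell types were also present in these libraries. Pde6b was lower in rd1 at each age, with log2 fold changes from -2.37 at P2 to -1.26 at P10. P6 rd1 replicates 1 and 3 differed by close to the sampling noise of their reads (chi-square per degree of freedom 1.26, against 5.47 to 162 for the other 28 pairs of replicates) and were averaged and counted as 1 sample, which left 27. The libraries also stood apart in a way that the labels do not name. Gm42418, a predicted gene that overlaps ribosomal RNA sequence, was at 92.7 to 319 CPM in 10 libraries, namely the 9 rd1 libraries of every age but P8 and P6 WT replicate 1, and at 45.8 CPM or less in the other 18. The 9 rd1 libraries were also the deepest, at 16.0 to 21.4 M counts against at most 14.996 M in the other 19. At P2, P4 and P10 this library class and the genotype cannot be told apart, P6 has 1 WT library in the high class, and at P8 both genotypes were in the low class.

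The promoters of the late-rising genes and of Nrtn, the member with the most GC-rich transcript, are shown so that the genes can be compared by sequence. Each window runs 5′ to 3′ from 250 bases before to 50 bases after the RefSeq transcription start (GRCm38.p6), and capitals mark matches to the motifs described below. Matches on the minus strand of the window appear as the reverse complement.
Ptprn promoter, chr1:75264159-75264458, minus strand: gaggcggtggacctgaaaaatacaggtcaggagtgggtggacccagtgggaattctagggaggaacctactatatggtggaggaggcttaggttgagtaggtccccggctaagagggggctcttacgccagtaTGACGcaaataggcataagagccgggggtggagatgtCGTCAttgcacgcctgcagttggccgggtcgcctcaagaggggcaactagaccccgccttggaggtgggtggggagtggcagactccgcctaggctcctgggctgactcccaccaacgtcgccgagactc
Twsg1 promoter, chr17:65951138-65951437, minus strand: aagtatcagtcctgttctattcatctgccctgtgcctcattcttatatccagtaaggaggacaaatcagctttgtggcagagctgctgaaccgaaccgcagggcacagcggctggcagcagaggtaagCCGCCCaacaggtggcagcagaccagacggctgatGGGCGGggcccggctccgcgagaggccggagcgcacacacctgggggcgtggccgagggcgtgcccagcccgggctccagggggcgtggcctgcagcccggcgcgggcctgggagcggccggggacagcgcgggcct
Ctnnal1 promoter, chr4:56865162-56865461, minus strand: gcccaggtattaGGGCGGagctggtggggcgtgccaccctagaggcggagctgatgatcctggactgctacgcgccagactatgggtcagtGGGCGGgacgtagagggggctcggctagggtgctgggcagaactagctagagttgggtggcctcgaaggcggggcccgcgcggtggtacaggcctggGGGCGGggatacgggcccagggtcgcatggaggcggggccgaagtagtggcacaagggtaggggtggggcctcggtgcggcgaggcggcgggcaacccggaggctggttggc
Nrtn promoter, chr17:56757499-56757798, minus strand: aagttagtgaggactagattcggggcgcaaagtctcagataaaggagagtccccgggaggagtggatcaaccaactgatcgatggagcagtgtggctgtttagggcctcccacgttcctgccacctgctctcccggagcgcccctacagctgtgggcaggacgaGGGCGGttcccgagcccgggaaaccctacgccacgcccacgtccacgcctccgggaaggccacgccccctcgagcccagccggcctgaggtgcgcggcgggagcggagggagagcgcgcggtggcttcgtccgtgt
The motifs were searched on both strands in these windows.

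The sequences searched were TGACG, the core of the cAMP response element, TGANTCA, the AP-1 site, GGGCGG, the GC box, and TAATCC, the site of the photoreceptor homeodomain factor CRX. No matches overlapped in these windows, and a match is only a run of letters. RefSeq gives Ptprn a pair of starts, and the printed window is that of the start farther upstream. It held TGACG at -117 and -80 bases from the start, on opposite strands, and no GC box. The window of the other Ptprn start, chr1:75263722-75264021, held no TGACG and a GC box at -212 from that start. TGACG was absent from the windows of the other 5 members, and 20.8% of all 32851 promoter windows held it. The Twsg1 window held 2 GC boxes, that of Ctnnal1 3 and that of Nrtn 1. A GC box was present in 35.7% of all windows. TAATCC was in no member's window, against 7.06% of all windows, and TGANTCA only in that of Pcsk1n, against 7.81%. The 4 printed windows were 60.3% to 70.3% G or C, above the median of 52.7% over all windows.

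Ptprn lies on chromosome 1, from 75247027 to 75264502 on the minus strand of GRCm38, and is identified as ENSMUSG00000026204. Its level was 16.05 and 9.24 CPM in the P2 rd1 libraries, and the WT libraries of that age had 6.63 and 13.6 CPM. At P4 it was 11.3 and 9.19 CPM in rd1, with 10.3, 8.59 and 9.07 CPM in WT. At P6 the 3 rd1 libraries had 19.7, 13.3 and 24.9 CPM and the 4 WT libraries 7.64, 14.2, 25.6 and 19.1 CPM. The genotypes overlapped at each of these 3 ages.

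At P8, with both genotypes in the low library class, the 4 rd1 libraries had 84.7, 68.4, 78.0 and 97.4 CPM of Ptprn. The WT libraries of that age had 13.1 and 15.8 CPM. The lowest rd1 library was thus above the highest WT library, and the ratio of the means was 5.69. At P10 the rd1 libraries had 703 and 925 CPM, and the 4 WT libraries 24.3, 24.7, 39.3 and 21.8 CPM. No other library approached the P10 rd1 level, and the ratio of the means was 29.6. Within rd1 the mean went from 17.8 ± 6.43 (SD, n = 2) at P6 to 82.1 ± 12.2 (SD, n = 4) at P8 and 814 ± 157 (SD, n = 2) at P10. WT rods had 16.6 ± 7.61 (SD, n = 4), 14.4 ± 1.89 (SD, n = 2) and 27.5 ± 7.96 (SD, n = 4) at those ages.

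On the log2 scale of the fitted model, the difference of rd1 from WT in Ptprn was 0.33 ± 0.40 (SE) at P2, 0.17 ± 0.36 at P4 and 0.15 ± 0.33 at P6. It was 2.44 ± 0.37 at P8 and 4.96 ± 0.32 at P10. The P10 effect exceeded the P2 effect by 4.62 ± 0.52. Leaving out each library in turn kept the P8 difference between 2.35 and 2.52 and the P10 difference between 4.70 and 5.18. The opposite-strand gene Gm28294, which overlaps Ptprn, was at 0.319 CPM or less in every rd1 library up to P8 and at 9.17 and 9.65 CPM in the P10 rd1 libraries, against at most 0.447 CPM in P10 WT. Reads shared between the pair could be split in the authors' counting, which was not tested.

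Ptprn has 6 annotated transcripts, of which Ptprn-001, 3554 bases long, carried nearly all of the signal. It held 88.5% and 89.9% of the gene's transcript-level CPM in the P10 rd1 libraries and 86.9% to 92.3% in P10 WT. The retained-intron transcript Ptprn-007 held 6.62% to 7.36% in P10 rd1, within the 3.60% to 9.48% of P10 WT. At P8 it held 8.28% to 10.4% in rd1 and 4.41% to 4.90% in WT, and these ranges did not overlap. At P10 the shares thus overlapped between genotypes while the totals did not.

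Twsg1, on chromosome 17 from 65923066 to 65951187 on the minus strand (ENSMUSG00000024098), overlapped or lay close between the genotypes until P8. Its P2 values were 84.1 and 76.7 CPM for rd1, below the WT values of 88.7 and 85.8 CPM. At P4 they were 78.4 and 82.9 CPM in rd1, with 85.6, 84.0 and 83.2 CPM in WT. At P6 they were 65.5, 79.9 and 64.0 CPM in rd1, with 72.6, 68.9, 81.2 and 69.0 CPM in WT. The rd1 libraries lay slightly below WT at P2 and P4. At P6 the rd1 library at 79.9 CPM lay among the WT libraries, and those at 65.5 and 64.0 CPM lay below them.

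At P8 Twsg1 was at 66.9, 83.4, 62.6 and 85.1 CPM in rd1 and at 61.6 and 62.9 CPM in WT. At P10 the rd1 libraries had 166 and 250 CPM, above the 58.9, 56.7, 55.7 and 47.5 CPM of WT. The rd1 libraries overlapped WT at P8 and were far above every other library at P10, with a ratio of means of 3.804. The WT mean was 87.2 ± 2.03 (SD, n = 2) at P2 and 54.7 ± 4.98 (SD, n = 4) at P10, and the rd1 mean 80.4 ± 5.20 (SD, n = 2) and 208 ± 59.5 (SD, n = 2). The fitted log2 difference of rd1 from WT was -0.09 ± 0.18 (SE) at P2, 0.20 ± 0.16 at P8 and 2.00 ± 0.15 at P10, and the P10 effect exceeded the P2 effect by 2.09 ± 0.23.

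Ctnnal1, on chromosome 4 from 56810935 to 56865188 on the minus strand (ENSMUSG00000038816), had the course most like that of Twsg1. At P2 it was at 51.6 and 40.3 CPM for rd1, and the WT libraries had 56.2 and 39.9 CPM. At P4 the rd1 libraries had 33.1 and 43.4 CPM, below the 58.0, 47.3 and 63.1 CPM of WT. At P6 the values were 45.1, 47.0 and 39.4 CPM in rd1, with 26.5, 47.6, 59.5 and 46.6 CPM in WT, which overlapped.

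The P8 rd1 libraries had 51.4, 51.1, 51.1 and 55.7 CPM of Ctnnal1, and the WT libraries 29.9 and 42.9 CPM. At P10 rd1 had 138 and 172 CPM and WT 31.3, 33.8, 31.2 and 31.2 CPM. The genotypes did not overlap at either age, and the ratio of means was 1.44 at P8 and 4.86 at P10. The fitted log2 difference was -0.53 ± 0.22 (SE) at P4, 0.46 ± 0.21 at P8 and 2.35 ± 0.19 at P10, and the P10 effect exceeded the P2 effect by 2.38 ± 0.31. Its main transcript Ctnnal1-001, 3664 bases long, was at 85.0 and 119 CPM in P10 rd1 and 18.5 to 22.6 CPM in P10 WT.

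**Figure D1:**
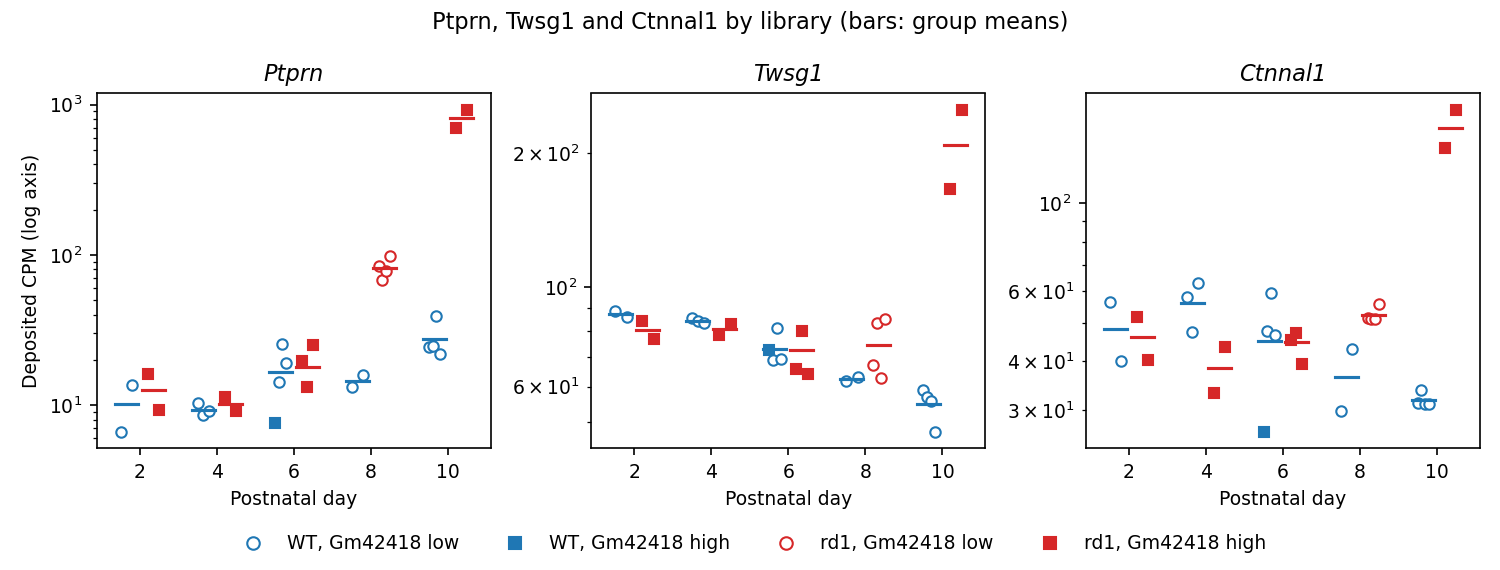
Deposited CPM of Ptprn, Twsg1 and Ctnnal1 by age in days, on a log axis, with 1 point per library, filled where Gm42418 was high, and a bar at the mean of each genotype (rd1 P6 replicates 1 and 3 counted as 1). The P10 rd1 points stand above all others in each panel, and the rd1 points of Ptprn and Ctnnal1 also stand above WT at P8.

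Other lists of genes also differed between the P10 libraries, where 7.81% of all tested genes were called higher and 4.83% lower in rd1. Summed over 18 immediate early and dissociation genes, the P10 rd1 libraries had 3283 and 4058 CPM against 487 to 2008 CPM in WT, and 9 of the 18 rose in rd1 (edgeR adjusted p under 0.05). Of 10 Müller glia markers 4 rose (Sox9, Apoe, Clu and Car2), and their summed level was 1479 to 1604 CPM in rd1 against 455 to 1349 CPM in WT. Of 10 microglia markers 4 rose (Aif1, Tyrobp, C1qc and C1qb), with a sum of 66.8 to 123 CPM in rd1 against 10.1 to 53.0 CPM in WT. Ganglion cell markers summed to 148 to 189 CPM in rd1 and 30.9 to 135 CPM in WT, with 1 of 10 higher. Of 10 vessel markers 5 fell, with sums of 173 to 210 CPM in rd1 and 59.9 to 489 CPM in WT. Of 10 bipolar cell markers 2 fell (Scgn and Grik1), of 10 cone markers 2 fell (Pde6c and Opn1mw) and 1 rose (Gngt2), and of 10 progenitor markers 1 rose (Hes5). The sums of these 3 lists overlapped, at 474 to 705, 409 to 528 and 211 to 400 CPM in rd1 against 406 to 1721, 300 to 737 and 80.7 to 702 CPM in WT. None of 15 amacrine and horizontal cell markers was called, and their sums overlapped. No marker of these lists was at 0 in every library of a P10 group, and their part in the levels of the 6 genes was not tested. In sorted bulk RNA, fewer cells of a type and less RNA per cell cannot be told apart.

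P10 WT replicate 5 had 515 CPM of the immediate early gene Fos, within the 490 to 736 CPM of P10 rd1. Summed over the 18 immediate early and dissociation genes, however, every P10 WT library was at 2008 CPM or less, below the 3283 and 4058 CPM of P10 rd1. Replicate 5 had 21.8 CPM of Ptprn, 47.5 CPM of Twsg1 and 31.2 CPM of Ctnnal1, in each case at or near the lowest of the P10 WT libraries. P6 WT replicate 1, the WT library of the high class, had 7.64 CPM of Ptprn and 26.5 CPM of Ctnnal1, the lowest of P6 WT, and 72.6 CPM of Twsg1, among the other 3. At P8 Ptprn was 5.69 times its WT mean. The immediate early sums overlapped at that age (697 to 967 CPM in rd1, 664 to 811 CPM in WT), and so did the microglia sums. Of the 18 immediate early genes 1 was called higher at P8 (Nr4a1) and 1 lower (Ier3), beside 1.18% and 2.52% of all tested genes. Müller glia and cone sums did not overlap at P8: they were 691 to 1168 and 670 to 795 CPM in rd1 against 575 to 684 and 359 to 449 CPM in WT. The part of these lists, of Fos and of the library class in the levels of Ptprn, Twsg1 and Ctnnal1 was not tested.

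Nrtn, on chromosome 17 from 56751325 to 56757530 on the minus strand (ENSMUSG00000039481), showed the second course. The P2 rd1 libraries had 35.1 and 35.6 CPM and the WT libraries 0.637 and 2.91 CPM. At P4 the rd1 values were 32.8 and 30.9 CPM against 1.11, 1.12 and 1.67 CPM in WT. The rd1 level was therefore about as high at the youngest age as at P10, where it was 38.1 and 31.9 CPM against 0.267, 0.384, 2.34 and 0.337 CPM in WT.

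At P8 the 4 rd1 libraries had 0.920, 1.097, 1.47 and 1.05 CPM of Nrtn and the WT libraries 1.57 and 1.25 CPM. Nrtn was thus near the WT level in all P8 rd1 libraries. At P6 the rd1 libraries had 38.4, 21.3 and 36.4 CPM, and the WT libraries 28.7, 0.454, 0.533 and 0.921 CPM. P6 WT replicate 1 lay within the rd1 range and was 45.1 times the mean of the other 3 WT libraries of its age. Over all ages, Nrtn was at 21.3 to 38.4 CPM in the 10 libraries with high Gm42418 and at 0.267 to 2.91 CPM in the other 18.

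Pcsk1n, on chromosome X from 7919822 to 7924410 on the plus strand (ENSMUSG00000039278), followed the same libraries. At P2 it was at 12.5 and 9.95 CPM in rd1 against 0.347 and 1.71 CPM in WT, and at P4 at 18.4 and 11.4 CPM in rd1, with 0.898, 1.15 and 2.04 CPM in WT. At P6 rd1 had 22.7, 12.7 and 24.1 CPM, and WT 19.5, 1.21, 2.96 and 1.75 CPM. P6 WT replicate 1 again lay within the rd1 range, at 9.91 times the mean of the other 3.

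At P8 the rd1 libraries had 2.73, 1.85, 2.18 and 2.39 CPM of Pcsk1n, below the 3.22 and 3.25 CPM of WT. At P10 they had 47.4 and 49.3 CPM, and WT had 2.79, 2.55, 6.98 and 1.53 CPM. Unlike Nrtn, Pcsk1n also differed with age within the high-class rd1 libraries, where its P10 mean was 4.31 times its P2 mean. The P10 mean of WT was 3.36 times that of P2, so the ratio of rd1 to WT was close at the ends of the course, 10.9 at P2 and 13.97 at P10. The overlapping gene Eras on the other strand was at 0.249 CPM or less in every library.

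Scand1, on chromosome 2 from 156311847 to 156312704 on the minus strand (ENSMUSG00000046229), was at 35.1 and 28.8 CPM in P2 rd1 and 0.563 and 1.93 CPM in WT. At P4 it was at 34.9 and 33.2 CPM in rd1, with 0.947, 0.787 and 1.62 CPM in WT. At P6 the rd1 libraries had 42.5, 28.8 and 47.9 CPM and the WT libraries 37.1, 0.922, 0.665 and 1.49 CPM. As with Nrtn and Pcsk1n, only replicate 1 of P6 WT was in the rd1 range, at 36.1 times the mean of the other 3.

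At P8 Scand1 was at 0.296, 1.57, 0.366 and 0.242 CPM in rd1, with 1.60 and 2.63 CPM in WT. At P10 it was at 49.0 and 51.4 CPM in rd1, with 0.203, 0.385, 1.76 and 0.439 CPM in WT. The gene was thus lowest in P8 rd1 and P10 WT and highest in P10 rd1, with a ratio of means of 72.0 at P10. Cnbd2, which overlaps Scand1 on the other strand, ran from 6.39 to 22.5 CPM in the 10 high-class libraries and from 7.43 to 35.9 CPM in the other 18, so its level did not separate them.

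**Figure D2:**
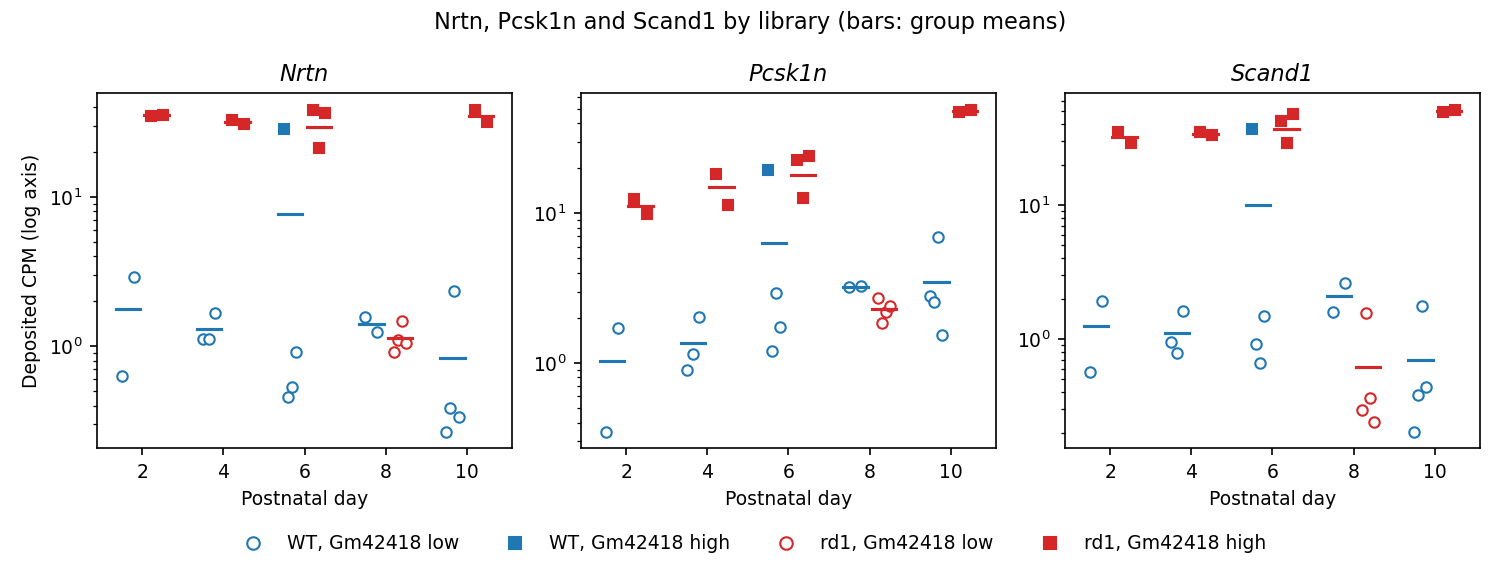
Deposited CPM of Nrtn, Pcsk1n and Scand1 by age in days, on a log axis, with 1 point per library, filled where Gm42418 was high, and a bar at the mean of each genotype (rd1 P6 replicates 1 and 3 counted as 1). The rd1 points are high at P2, P4, P6 and P10 and low at P8, and 1 WT point at P6, replicate 1, lies among the rd1 points.

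**Figure D3:**
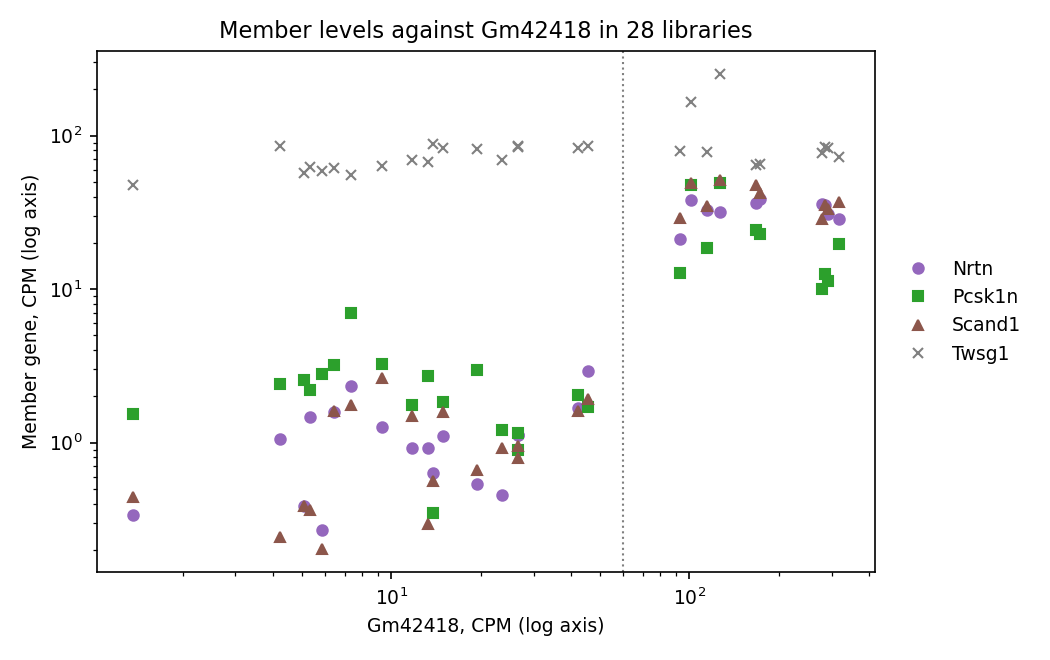
CPM of Nrtn, Pcsk1n, Scand1 and, for comparison, Twsg1 against CPM of Gm42418, with 1 point per gene and library over 28 libraries, log axes and a dotted line at 60 CPM of Gm42418. Nrtn, Pcsk1n and Scand1 are high in the 10 libraries right of the line and low in the other 18, whereas Twsg1 reaches 166 CPM or more only in the 2 P10 rd1 libraries.

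In the fitted model, the log2 difference of rd1 from WT in Nrtn was 4.30 ± 1.33 (SE) at P2, 4.60 ± 1.15 at P4, 1.91 ± 0.94 at P6, -0.38 ± 1.26 at P8 and 5.41 ± 1.08 at P10. The P10 effect exceeded the P2 effect by 1.11 ± 1.66. Pcsk1n had 3.43 ± 1.00 at P2, 3.46 ± 0.83 at P4, 1.497 ± 0.70 at P6, -0.55 ± 0.80 at P8 and 3.87 ± 0.72 at P10, and a P10 effect 0.44 ± 1.26 above that of P2. Scand1 had 4.65 ± 1.37, 4.96 ± 1.18, 1.86 ± 0.93, -1.81 ± 1.29 and 6.14 ± 1.11 at the 5 ages, and a P10 effect 1.49 ± 1.74 above that of P2. For each of these 3 genes the difference between the P10 and P2 effects was smaller than its standard error, and the same quantity was 4.62 ± 0.52, 2.09 ± 0.23 and 2.38 ± 0.31 for Ptprn, Twsg1 and Ctnnal1. Leaving out 1 library moved the P2 difference of Nrtn to between 3.60 and 5.81, that of Pcsk1n to between 2.70 and 5.14 and that of Scand1 to between 4.03 and 5.85, lowest without P2 WT replicate 1 and highest without P2 WT replicate 2. Without that last library the P10 effect minus the P2 effect was -0.41 for Nrtn, -1.27 for Pcsk1n and 0.29 for Scand1. It reached 2.51 for Nrtn and 2.46 for Scand1 without P10 WT replicate 4, and 1.17 for Pcsk1n without P2 WT replicate 1. Without P6 WT replicate 1 the P6 differences were 5.52 for Nrtn, 3.26 for Pcsk1n and 5.27 for Scand1.

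A term for the library class was added to the model, which estimates it from P6 WT replicate 1 against the other P6 WT libraries. With it, the P10 difference of Nrtn was -0.13 ± 0.87 (SE), that of Pcsk1n 0.44 ± 0.79 and that of Scand1 0.82 ± 0.93. The class term itself was 5.53 ± 0.65 for Nrtn, 3.42 ± 0.58 for Pcsk1n and 5.32 ± 0.65 for Scand1 on the log2 scale. For the late risers the P10 difference with the term was 6.18 ± 0.59 for Ptprn, 1.89 ± 0.27 for Twsg1 and 3.17 ± 0.30 for Ctnnal1. Without the term these differences were 4.96, 2.00 and 2.35. For Ptprn the term also raised the early differences, to 1.56 ± 0.55 at P2, 1.39 ± 0.53 at P4 and 1.15 ± 0.45 at P6. For Ctnnal1 it raised them to 0.80 ± 0.29 at P2, 0.30 ± 0.28 at P4 and 0.70 ± 0.24 at P6. P6 WT replicate 1 was the lowest of P6 WT in both genes. As the term rests on 1 library, these values carry that library's own deviation. They do not separate class from genotype at P2, P4 and P10.

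**Figure D4:**
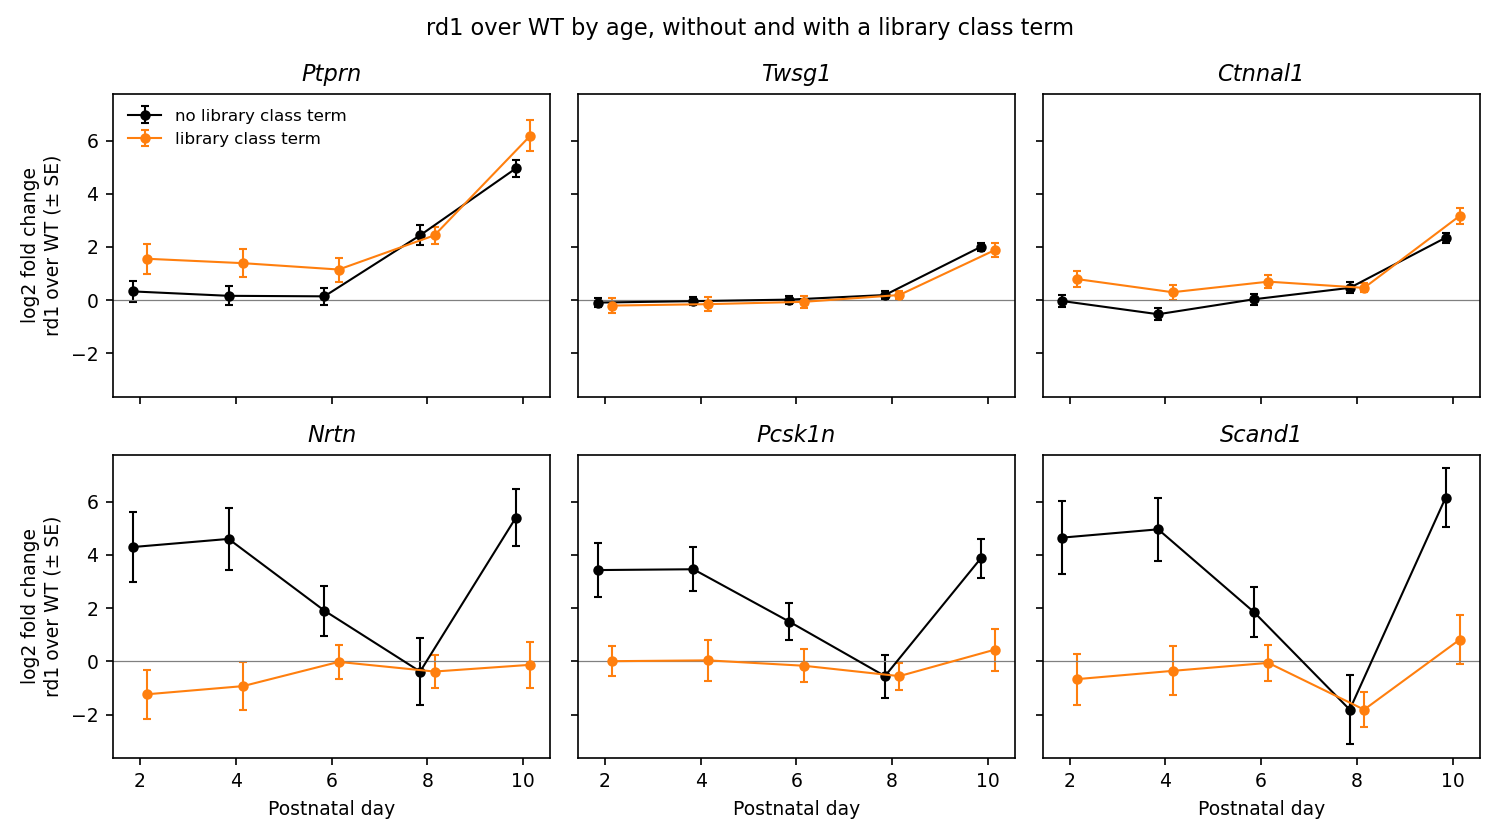
Fitted log2 difference of rd1 from WT, with its standard error, at each age for the 6 genes, without and with the library class term. Ptprn, Twsg1 and Ctnnal1 are at 1.89 or more at P10 in both fits, and Nrtn, Pcsk1n and Scand1 are within their standard error of 0 at P10 with the term.

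The members also differed in base composition. The main transcript of Nrtn was 72.8% G or C and that of Scand1 68.4%, above 99.9% and 99.8% of the tested genes. Ptprn was at 59.5% and Pcsk1n at 57.3%, and Ctnnal1 and Twsg1 were at 46.2% and 45.4%, above 30.4% and 26.2% of tested genes. Nrtn and Scand1 were also short, at 1023 and 759 bases. Among the 97 tested genes with a transcript of 65% G or C or more, a limit set after the values were seen, 16.5% were called higher in rd1 at P2, 18.6% at P4, 8.25% at P6, 0 at P8 and 50.5% at P10. The 97 include Nrtn and Scand1, which were chosen for their course on these same libraries. Over all tested genes with a known composition, the shares were 1.42%, 1.59%, 1.46%, 1.18% and 7.83%. In P6 WT replicate 1 the 97 genes had a median log2 difference of 0.67 from the other P6 WT libraries, against -0.13 over all genes. The part of base composition in the levels of Nrtn and Scand1 was not tested.

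**Figure D5:**
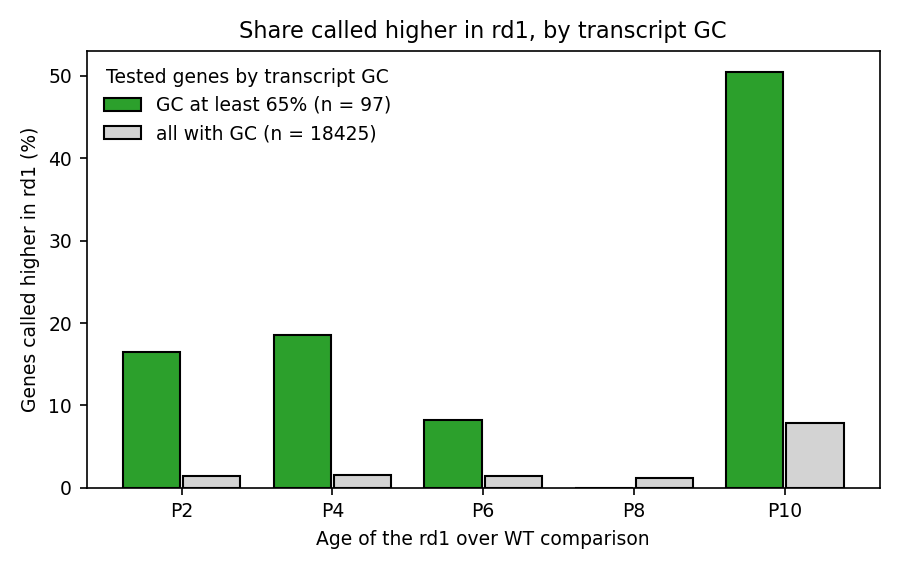
Share of genes called higher in rd1 (edgeR, adjusted p under 0.05) at each age, in percent, for the 97 genes with 65% G or C or more and for all genes with a known composition. Nrtn and Scand1 are among the 97. The GC-rich share runs from 8.25% to 50.5% at P2, P4, P6 and P10 and is 0 at P8.

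Per kilobase of transcript, which takes account of length but not of base composition, Ptprn stood highest of the 6 in P10 rd1, at 229 CPM per kilobase. Scand1 followed with 66.2, Twsg1 with 50.9, Ctnnal1 with 42.3, Nrtn with 34.2 and Pcsk1n with 22.1 CPM per kilobase. In P10 WT the order was different, with Twsg1 at 13.4, Ctnnal1 at 8.70, Ptprn at 7.75 and the other 3 at 0.813 to 1.58 CPM per kilobase. Twsg1 and Ctnnal1 in P10 rd1 were within the spread of their libraries of each other on the CPM scale, 166 and 250 against 138 and 172.

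Genes whose course was most like that of a member were found by the root mean square of the difference between log2 CPM values centred per gene, over 27 samples and 12301 candidate genes. Twsg1 and Ctnnal1 were close to each other, at 0.28. The gene nearest to Twsg1 was Rbm17, a splicing factor, at 0.23, with 141 CPM in P10 rd1 and 57.1 CPM in P10 WT. Eif3b, a translation initiation factor subunit, was at 0.28 from Twsg1. Near Ctnnal1 were Rbm17 at 0.33 and Eif2ak3, which encodes the endoplasmic reticulum stress kinase PERK, at 0.39. Eif2ak3 averaged 186 CPM in P10 rd1 and 50.4 CPM in P10 WT.

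This measure grows with a gene's own spread over the libraries, which was 1.84 (SD, log2) for Ptprn, 0.49 for Twsg1 and 0.61 for Ctnnal1, so distances are not compared between members. The nearest genes to Ptprn were Ttc39aos1 at 0.85, Csrnp1 at 0.97 and Marveld2, a tight junction protein gene, at 0.97. Csrnp1 averaged 31.2 CPM in P10 rd1 and 1.45 CPM in P10 WT. Nrtn and Scand1 were each other's nearest gene, at 0.68, followed for both by the histone gene Hist2h2aa1 at 0.81. Hist2h2aa1 was at 11.7 CPM in P6 WT replicate 1, at least 3.96 CPM in each high-class rd1 library and at most 0.122 CPM in the other 18. Pcsk1n was nearest to Ccdc85b at 0.54 and Tpgs1 at 0.76, which were at 18.5 and 16.6 CPM in P6 WT replicate 1. All of these likenesses are over libraries that share the class described above.

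Genes that work with the members were taken from 5 lists of related genes, 155 of which were tested, with edgeR's quasi-likelihood test and a Benjamini-Hochberg adjusted p under 0.05 as the call. At P10, 20 of the 155 were called, 13 higher and 7 lower in rd1. This is 12.9%, beside 12.6% of all tested genes, a share close to the background. The count was 7 without P10 rd1 replicate 1, 3 without P10 rd1 replicate 2 and 31 without P10 WT replicate 5, and 2 with the library class term. The background shares at P10 were 7.81% higher and 4.83% lower. At P2 the lists had 2 higher and 1 lower, beside 1.42% and 1.38% of all genes (2.81% in all), and at P4 2 higher and 1 lower, beside 1.61% and 1.34% (2.95% in all). At P6 they had 2 higher and 2 lower, beside 1.46% and 1.17% (2.63% in all), and at P8 1 higher and 4 lower, beside 1.18% and 2.52% (3.7% in all). The median log2 difference of the 155 genes at P10 was -0.02, against -0.05 over all genes. For the change in effect from P2 to P10, edgeR called none of the 155, beside 0.167% of all genes (0.107% higher and 0.0591% lower), with 6 at an unadjusted p under 0.05, and DESeq2 called 1.

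Of 37 genes of dense-core granules and prohormone processing, Sst and Chgb rose and Cadps and Ica1 fell at P10. Cadps, which primes dense-core granules for release, was at 27.1 to 42.7 CPM in P10 rd1 and 37.3 to 191 CPM in WT, with a log2 difference of -1.80 ± 0.40 (SE, edgeR adjusted p = 0.00493), and the call was lost without P10 rd1 replicate 2 (adjusted p = 0.151). Ica1, an islet autoantigen gene, fell to 1.35 and 1.41 CPM from 2.05 to 8.99 CPM in WT, and lost its call without either P10 rd1 library (highest edgeR adjusted p = 0.0796). Ica1 was also called lower at P4 and P6, with log2 differences of -1.74 ± 0.48 and -1.97 ± 0.46. Those calls were lost in 20 and 3 of the leave-one-out runs. With the library class term the edgeR adjusted p at P10 was 0.218 for Cadps, 0.464 for Ica1 and 0.399 for Sst. Chgb, a granin, rose by a log2 difference of 0.42 ± 0.13. Sst, the somatostatin gene, was called higher although it reached only 0.799 and 1.008 CPM, and it too lost its call without either P10 rd1 library (highest edgeR adjusted p = 0.140). Ptprn2, the nearest relative of Ptprn, fell at P6, to a mean of 7.74 CPM from 21.2 CPM in WT (edgeR adjusted p = 0.0192), a call lost without either P6 rd1 sample or P6 WT replicate 3 (highest adjusted p = 0.219). At P10 it was at 15.6 and 19.5 CPM in rd1 and 19.5 to 37.7 CPM in WT, with a log2 difference of -0.80 ± 0.31, which missed the threshold (edgeR adjusted p = 0.0996), while Ptprn was higher. Pcsk1, the convertase that proSAAS inhibits, was at 0 to 1.41 CPM over all libraries, whereas Pcsk2 was at 8.97 to 87.6 CPM and the carboxypeptidase gene Cpe at 165 to 702 CPM.

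Of 32 tested trophic factor and receptor genes, Manf and Gdf15 rose at P10 and none fell. Manf, a factor released under endoplasmic reticulum stress, was at 79.7 and 81.1 CPM in P10 rd1 and 43.7 to 71.9 CPM in WT, a log2 difference of 0.67 ± 0.17 (SE, edgeR adjusted p = 0.0130). Gdf15, a stress-induced cytokine gene, was at 2.11 and 3.29 CPM in rd1 and 0 to 0.824 CPM in WT, with a log2 difference of 3.34 ± 0.82. With the library class term the P10 differences of Manf and Gdf15 were 0.40 and 1.19 (edgeR adjusted p = 0.593 and 0.808). Manf lost its call without either P10 rd1 library (highest adjusted p = 0.150) and Gdf15 without replicate 2 of them (adjusted p = 0.143). Artn, the GDNF-family relative of Nrtn, rose at P2, with 2.36 and 3.15 CPM in rd1, with 0.251 and 0.311 CPM in WT, and this call held when each library was left out (highest edgeR adjusted p = 0.0230). With the library class term its adjusted p was 0.225. Nxnl1, which encodes rod-derived cone viability factor, fell at P8, to 91.5 to 157 CPM from 246 and 459 CPM in WT, and lost its call without P8 rd1 replicate 2, P8 rd1 replicate 4 or P8 WT replicate 1 (highest adjusted p = 0.595).

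The receptors of neurturin were present at low levels and were not called at any age. Gfra2 was at 0.767 to 8.52 CPM and Ret at 1.34 to 37.96 CPM over all libraries. Gfra1, the receptor of GDNF, was at 2.01 to 36.3 CPM, and Gdnf itself at 0 to 0.240 CPM.

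Of 37 tested BMP pathway genes, Id1, Id3, Smad4 and Smad6 rose and Fstl1 and Acvr2a fell at P10, and none was called at an earlier age. Id1 and Id3, transcriptional targets of BMP signalling, had log2 differences of 1.90 ± 0.41 (SE) and 1.62 ± 0.48. Id1 was at 14.3 and 16.6 CPM in rd1 and 1.52 to 6.73 CPM in WT (edgeR adjusted p = 0.00463), and its call was lost without P10 rd1 replicate 2 (adjusted p = 0.0822). With the class term the difference of Id1 was 0.66 (adjusted p = 0.722) and that of Smad6, an inhibitor of the pathway, 0.06 (adjusted p = 0.988). Fstl1, a secreted BMP antagonist, was at 7.78 and 10.8 CPM in rd1 and 25.8 to 33.2 CPM in WT, a log2 difference of -1.61 ± 0.25 (edgeR adjusted p = 0.000188). The Fstl1 call held when each library was left out and with the class term (adjusted p = 0.0317). The receptor gene Bmpr1a was at 111 to 198 CPM over all libraries and was not called at any age.

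Of 24 tested genes in the list built around catenins and cadherin junctions, Mpp5 and Ctnna1 rose and Crb1 fell at P10. Mpp5 (PALS1) and Crb1 encode partners in the apical Crumbs complex of photoreceptors. Mpp5 rose at P4, P6, P8 and P10, with 84.8 and 96.0 CPM in rd1 against 53.8 to 61.5 CPM in WT at P4, 92.9 to 103 against 55.3 and 64.2 CPM at P8, and 82.5 and 90.3 against 46.1 to 58.7 CPM at P10. Its log2 difference at P10 was 0.83 ± 0.14 (SE, edgeR adjusted p = 0.000477), and the calls at P6 and P10 held when each library was left out. With the class term the P10 log2 differences were 0.66 for Mpp5, -0.88 for Crb1 and 0.32 for Ctnna1. Without it they were 0.83, -0.92 and 0.71. The edgeR adjusted p with the term was 0.199, 0.215 and 0.504. Mpp5 kept its calls at P6 and P8 with the term (edgeR adjusted p = 0.0455 and 0.0159) but not at P4 (0.394). Crb1 was already called lower at P2 (log2 difference -0.94 ± 0.23, edgeR adjusted p = 0.0282), a call lost when any P2 library was left out. At P8 Crb1 was at 190 to 228 CPM in rd1 against 458 and 660 CPM in WT. The P8 log2 difference was -1.49 ± 0.19 (edgeR adjusted p = 2.72e-05), and this call held when each library was left out. At P10 it was at 271 and 300 CPM against 502 to 608 CPM, and this call was lost without either P10 rd1 library. Ctnna1, the alpha-catenin relative of Ctnnal1, was at 203 and 235 CPM in P10 rd1 and 135 to 149 CPM in WT (edgeR adjusted p = 0.00101), and lost its call without P10 rd1 replicate 2 (adjusted p = 0.0782).

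Of 25 tested genes of zinc finger proteins with a SCAN domain, with which SCAND1 can pair, Zkscan3, Zkscan1 and Zscan25 rose and Zkscan2 and Zkscan16 fell at P10. Zkscan1 was at 166 and 201 CPM in P10 rd1 and 98.7 to 145 CPM in WT, a log2 difference of 0.66 ± 0.15 (SE, edgeR adjusted p = 0.00481), and lost its call without P10 rd1 replicate 1 (adjusted p = 0.0780). Zkscan1 was also called higher at P4 and P6, with log2 differences of 0.57 ± 0.16 and 0.58 ± 0.15. Those calls were lost in 15 and 4 of the leave-one-out runs. Zscan25 was at 42.9 and 46.4 CPM in P2 rd1 and 17.6 and 19.5 CPM in WT, and at 29.6 and 31.1 against 14.2 to 18.7 CPM at P10. With the library class term the P10 log2 differences were 0.61 for Zkscan1 and 0.81 for Zscan25, against 0.66 and 0.96 without it. The edgeR adjusted p with the term was 0.267 and 0.321. The P2 call of Zscan25 was lost without P2 WT replicate 1 (edgeR adjusted p = 0.0870) and its P10 call without P10 rd1 replicate 2 (adjusted p = 0.0884). At P8 Zscan22 and Zscan29 fell, Zscan22 to 6.89 to 8.69 CPM from 18.3 and 24.6 CPM in WT, and both calls were lost without P8 WT replicate 1.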

How the data were processed

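Gene and transcript tables of 28 libraries (13 rd1, 15 WT) were used. Per the submitters' processing notes, the authors used kallisto 0.42.4, edgeR 3.32.1 and GRCm38.p5. The deposited gene tables held the authors' estimated counts, which are fractional, and the authors' CPM, which equalled count over library total to within 5.82e-11. A further column in each table matched no label and was not used. Reads were not mapped again.

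Estimated counts were rounded and tested with edgeR 4.0.16 (R 4.3.3) on 27 samples in 10 groups by its quasi-likelihood test, after filterByExpr and TMM scaling, with 17 residual degrees of freedom and Benjamini-Hochberg adjustment over 18608 genes at 0.05. The tool was tested on simulated data. Fold changes are on the log2 scale of that fit, and likenesses used edgeR's TMM-scaled log2 CPM with a prior count of 2. The comparison of P6 WT replicate 1 by base composition used log2(CPM + 1). Replicates 1 and 3 of P6 rd1 were averaged because a chi-square on transcripts with whole counts and a pair sum of at least 20 stayed below 2. DESeq2 1.42.0, limma-voom (limma 3.58.1) with library weights, size factors by RLE, no filter, 28 libraries kept apart, a replicate block and leaving out each library were alternatives. The library class term (Gm42418 above 60 CPM) and the GC limit were chosen after seeing the data. Up to 4 related genes per list with the smallest p-values were to be named in detail, from 5 fixed lists. The other related genes, partners and transcripts named were chosen after their values were seen. The members and lists were chosen with earlier results of these data known. Same-numbered samples of the 2 genotypes did not deviate together, so numbers were not taken as pairs. The results of 1 of the 10 marker lists are not reported here. Promoters are RefSeq's, matched by symbol for all 6 genes, 300 bases each.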

Additional observations from a re-analysis of the deposited data

Results flagged for a closer look

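In groups of 4 libraries, 18 sets of values of the 6 genes were examined for a library far from the other 3 (by Dixon's criterion of the gap over the range), which chance gives in about 1 in 20. In P6 WT, replicate 1 stood apart with 28.7 CPM of Nrtn, 19.5 CPM of Pcsk1n and 37.1 CPM of Scand1. In P10 WT, replicate 4 stood highest with 39.3 CPM of Ptprn, 2.34 CPM of Nrtn and 1.76 CPM of Scand1, and replicate 3 with 33.8 CPM of Ctnnal1. In P8 rd1, replicate 4 stood highest with 55.7 CPM of Ctnnal1 and replicate 2 with 1.57 CPM of Scand1.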

How the results depend on the processing

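Under the library class term the difference of Nrtn turned sign at P2 (-1.23 ± 0.93, SE), P4 (-0.93 ± 0.90), P6 (-0.02 ± 0.65) and P10 (-0.13 ± 0.87). That of Scand1 did so at P2 (-0.67 ± 0.96), P4 (-0.36 ± 0.92) and P6 (-0.05 ± 0.67). The sign also turned for Pcsk1n at P6 (-0.16 ± 0.63), Twsg1 at P6 (-0.06 ± 0.22) and Ctnnal1 at P2 (0.80 ± 0.29) and P4 (0.30 ± 0.28). That term lowered the calls to 150 at P2, 159 at P4 and 283 at P10, gave 49 for the change from P2 to P10, and left 0, 0 and 2 related genes at P2, P4 and P10. DESeq2 called 826, 878, 808 and 1033 genes at P2, P4, P6 and P8 and 135 for the change, with 6 related genes at P4, 11 at P6 and 1 for the change. At P6 it called 366 higher and 442 lower, against 272 and 217 by edgeR. Limma-voom called 2081, 1962, 1128 and 5264 genes at P4 to P10 and 52 for the change, with 16, 25, 10 and 48 related genes. Without the filter the change had 85 calls and the related genes 6 at P4 and 9 at P6. With 28 libraries kept apart there were 1284 calls at P6, 56 for the change and 16 related genes at P6. Same-numbered samples correlated at -0.238 to 0.138 over 9 pairs, so the numbers give no pairing, and the replicate block moved the calls for the change from 31 to 54.

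Leaving out each library in turn gave 207 to 900 calls at P2, 195 to 873 at P4, 196 to 1023 at P6, 171 to 862 at P8, 463 to 2934 at P10 and 12 to 86 for the change. The related genes had 1 to 5, 0 to 5, 1 to 8, 2 to 6 and 3 to 31 calls at the 5 ages and 0 for the change in each case. The 463 calls at P10 were those without P10 rd1 replicate 2, and the 171 at P8 those without P8 WT replicate 1. The late-riser P8 and P10 differences of Ptprn, and the P10 differences of Twsg1 and Ctnnal1, kept their sign in each alternative run. The cause of the other changes was not tested. At a depth of 11.1 M counts, 1 CPM rests on 11.1 counts, which limits the low values of Nrtn, Pcsk1n and Scand1.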
